A study of Mus musculus with 6 samples.

Results

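The 8 genes described here, Sox10, Foxd3, Erbb3, Ngfr, Gfap, S100b, Cdh19 and Gap43, are widely used as markers of Schwann cells. They were chosen by name, and every probe set annotated to exactly 1 of these symbols was taken, which gave 16 of the 45037 probe sets tested. Expression was measured on Affymetrix arrays in isolated pancreatic islets of 6 mice, 3 labelled hIAPP Tg and 3 labelled wild type, with 1 array per mouse. The hIAPP_Tg mice carry human islet amyloid polypeptide, the aggregation-prone form of a hormone that beta cells release with insulin, behind an Ins2 promoter. The transgene is therefore aimed at beta cells and not at Schwann cells. For all 6 mice the strain is written FVB/N-Tg(Ins2-IAPP)RFHSoel/J, and all were fed standard chow and were 12 weeks old per their labels, where the series text gives 10 to 12 weeks. The labels do not say whether the wild-type mice were littermates.

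Schwann cells are the glia of peripheral nerves. In the pancreas they lie along nerve fibres and form a loose sheath around the islet, and in rodents this sheath reacts to islet injury. Their lineage comes from the neural crest, where the transcription factors Sox10 and Foxd3 act, and their survival depends on neuregulin signals from axons through the receptor Erbb3. Non-myelinating and injured Schwann cells make Gfap, Ngfr and Gap43. None of these genes marks Schwann cells alone: pancreatic stellate cells also make Gfap and Ngfr, epithelial cells make Erbb3 and neurons make Gap43.

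No Schwann cell marker gene separated hIAPP_Tg from wild-type islets past the test. After limma and Benjamini-Hochberg adjustment over the whole table, 0 of the 16 were under 0.05, against 0.0289% of all 45037 probe sets, and the smallest adjusted p was 0.557. At an unadjusted limma p under 0.05 there was 1 probe set, Foxd3, or 6.25% of the 16 against 7.33% of all probe sets (3.82% counting those higher in hIAPP_Tg islets alone). The differences, given throughout as hIAPP_Tg minus wild type on the log2 scale, ran from -0.10 to 0.20. The 95% intervals of all 16 lay between -0.50 and 0.50, so that none reached a difference of 1, which is a 2-fold change in the deposited values. These intervals rest on values that were rounded to 0.1 and that lie low on the scale, where differences in RNA are compressed.

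The signal of most of the 16 probe sets could not be told from background. The 80 probe sets of olfactory and vomeronasal receptor genes, which islets need not express, had a median level of 4.09 and a 95th percentile of 5.90, and the median of every array was 5.7. On all 6 arrays 4 of the 16 lay above 5.90: a pair of Sox10 probe sets, the Foxd3 probe set and the brighter Erbb3 probe set. On no array did 9 of them, among which were all probe sets of S100b and Ngfr. The remaining 3, for Cdh19, Gap43 and the brightest of Gfap, lay above it on some arrays. Islet RNA was plainly present, since the 8 measured beta cell markers averaged 12.70 to 12.93 on the hIAPP_Tg and 12.89 to 13.04 on the wild-type arrays. Of the 8 genes, only Sox10, Foxd3 and Erbb3 had a probe set above 5.90 on all arrays. Levels of different probe sets were not ranked against each other. In whole islets, fewer Schwann cells and less RNA per Schwann cell cannot be told apart.

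**Figure D1:**
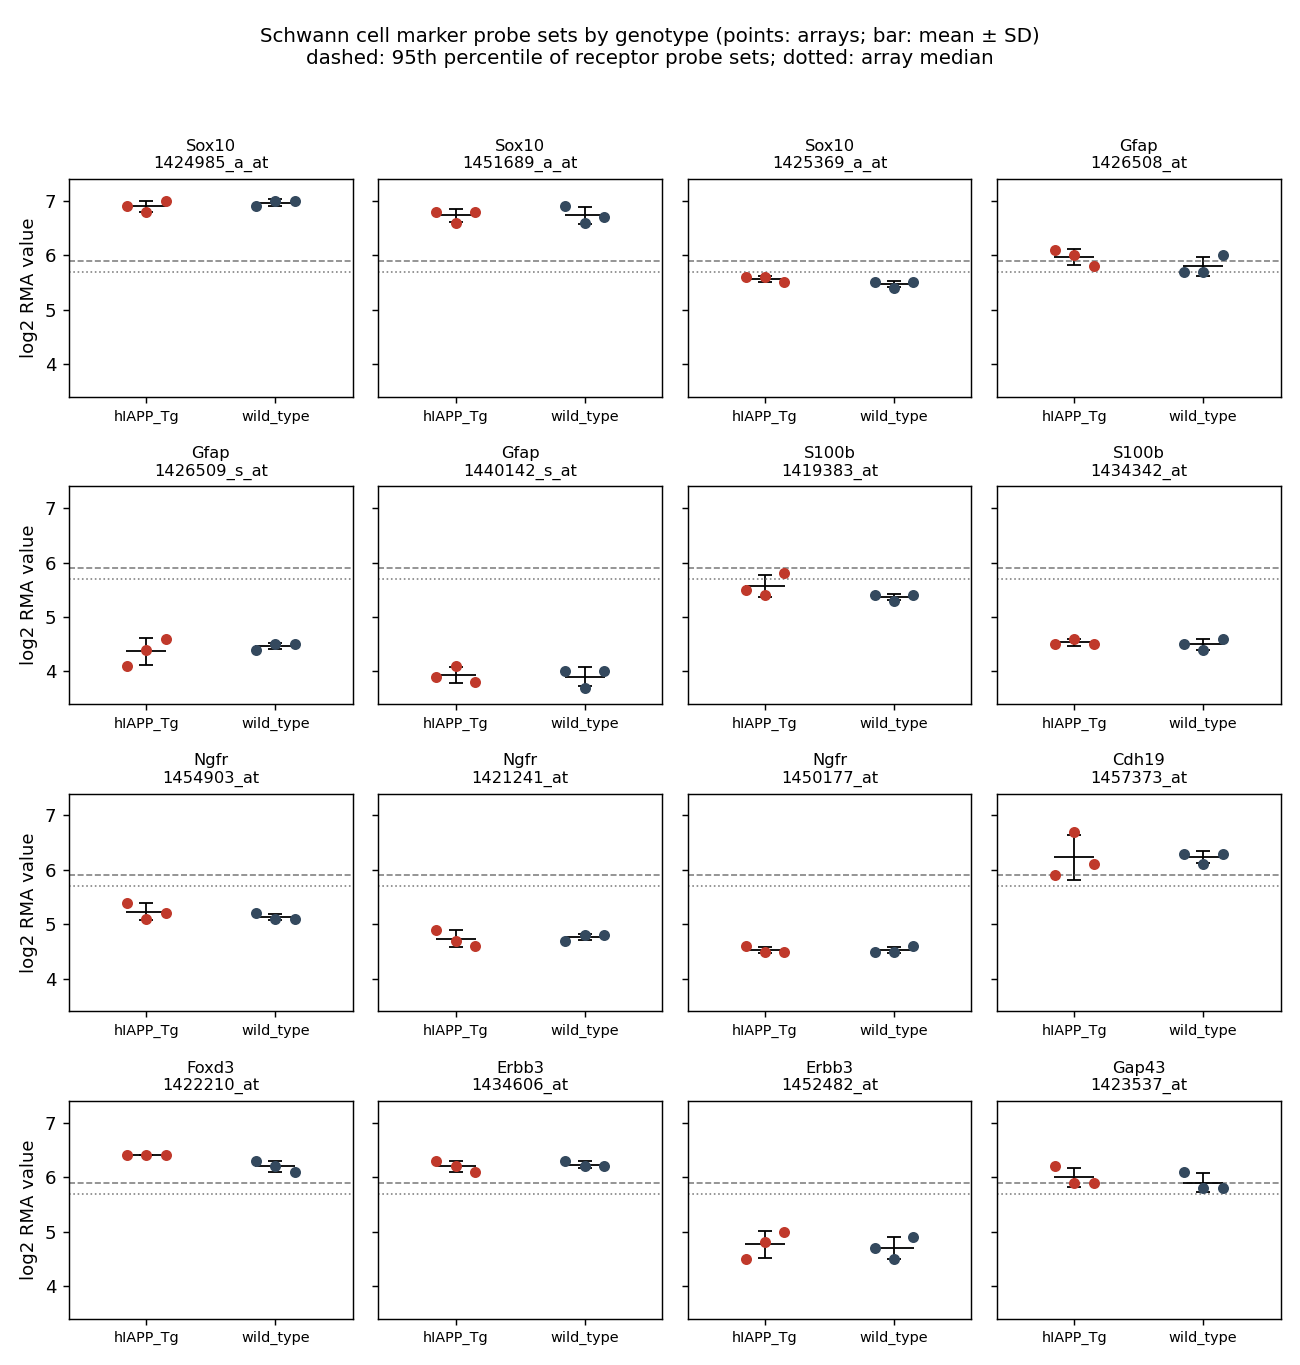
Log2 RMA values of the 16 probe sets of the Schwann cell marker genes, 1 panel each, with hIAPP_Tg left and wild type right. Points are arrays, horizontal bars with whiskers are mean ± SD (n = 3 each), the dashed line is the 95th percentile of receptor probe sets (5.90) and the dotted line the array median (5.7). The groups overlap in every panel but that of Foxd3.

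Sox10, the transcription factor that defines the peripheral glial lineage, stood above the receptor background on all arrays with 2 of its 3 probe sets, and none of the 3 passed the test. Its brightest probe set, 1424985_a_at, read 6.9, 6.8 and 7.0 in hIAPP_Tg islets, against 6.9, 7.0 and 7.0 in wild-type islets. The difference was -0.067 (SE 0.073, 95% interval -0.24 to 0.11, limma adjusted p = 0.818). The groups overlapped, and the interval left room for changes between 0.844-fold and 1.08-fold. The second probe set, 1451689_a_at, read 6.8, 6.6 and 6.8 in hIAPP_Tg and 6.9, 6.6 and 6.7 in wild-type islets, a difference of 0 (95% interval -0.25 to 0.25). The third, 1425369_a_at, lay below the receptor background at 5.6, 5.6 and 5.5 in hIAPP_Tg and 5.5, 5.4 and 5.5 in wild-type islets. It differed by 0.10, so the 3 probe sets of Sox10 pointed to no common direction.

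Foxd3, a forkhead factor that keeps neural crest cells undifferentiated and represses melanocyte fate, was the only member whose genotypes did not overlap. Its single probe set read 6.4 on each of the 3 hIAPP_Tg arrays, against 6.3, 6.2 and 6.1 in wild-type islets. The hIAPP_Tg mean was 6.40 ± 0 and the wild-type mean 6.20 ± 0.10 (SD, n = 3 each), with a difference of 0.20 (SE 0.068, 95% interval 0.035 to 0.37), or 1.15-fold. The gap between the lowest hIAPP_Tg and the highest wild-type value was a single rounding step of 0.1. With an unadjusted limma p of 0.0248 and an adjusted p of 0.557, Foxd3 did not pass. Among all probe sets 3.44% were higher without overlap and 6.66% did not overlap in either direction, beside 1 of 16 here. The difference was 0.16 with the acinar marker mean as a covariate and ran from 0.15 to 0.25 over the arrays left out in turn, and the unadjusted p rose above 0.05 with that covariate (0.0895) and without hIAPP_Tg replicate 6 (0.0514).

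Erbb3 encodes the receptor that binds neuregulins on Schwann cells and signals together with Erbb2. Its brighter probe set, 1434606_at, read 6.3, 6.2 and 6.1 in hIAPP_Tg islets, against 6.3, 6.2 and 6.2 in wild-type islets. The difference was -0.033 (SE 0.073, 95% interval -0.21 to 0.14, limma adjusted p = 0.908), and the values of the groups nearly coincided. The dimmer probe set, 1452482_at, spread more widely, at 4.5, 4.8 and 5.0 in hIAPP_Tg and 4.7, 4.5 and 4.9 in wild-type islets, a difference of 0.067 with overlap.

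Ngfr, the low-affinity neurotrophin receptor p75, stood within the receptor background on all arrays. The brightest of its 3 probe sets, 1454903_at, read 5.4, 5.1 and 5.2 in hIAPP_Tg islets, against 5.2, 5.1 and 5.1 in wild-type islets. It differed by 0.10 (SE 0.090, 95% interval -0.12 to 0.32, limma adjusted p = 0.791). The groups overlapped, with hIAPP_Tg replicate 4 the highest. The other probe sets differed by -0.033 and 0, with all values between 4.5 and 4.9. A change of Ngfr from a level below detection to a level still below it would not show in these values.

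Gfap encodes the intermediate filament of astrocytes and non-myelinating Schwann cells. Its brightest probe set, 1426508_at, read 6.1, 6.0 and 5.8 in hIAPP_Tg islets, against 5.7, 5.7 and 6.0 in wild-type islets. It differed by 0.17 (SE 0.12, 95% interval -0.12 to 0.45, limma adjusted p = 0.756), and wild_type replicate 3 lay level with hIAPP_Tg replicate 5. The other Gfap probe sets differed by -0.10 and 0.033 and lay between 3.7 and 4.6 on every array, below the receptor background and with no common direction.

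S100b, a calcium-binding protein of glia, had its highest value in 1 hIAPP_Tg mouse. The brighter probe set, 1419383_at, read 5.5, 5.4 and 5.8 in hIAPP_Tg islets, against 5.4, 5.3 and 5.4 in wild-type islets. The difference was 0.20 (SE 0.11, 95% interval -0.070 to 0.47, limma adjusted p = 0.691), with hIAPP_Tg replicate 6 highest and replicate 5 level with the top of the wild-type values. The second probe set, 1434342_at, lay at 4.4 to 4.6 on all arrays and differed by 0.033. Over the alternative settings the difference of the brighter probe set ran from 0.083 to 0.28.

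Cdh19, a cadherin found on Schwann cells and their precursors, showed the widest spread of the 16 probe sets and the same mean in both genotypes. It read 5.9, 6.7 and 6.1 in hIAPP_Tg islets, against 6.3, 6.1 and 6.3 in wild-type islets. Both means were 6.23, with an SD of 0.42 in hIAPP_Tg and 0.12 in wild-type islets (n = 3 each). The difference was 0 with a 95% interval of -0.50 to 0.50 (limma adjusted p = 1), the widest of the 16. The highest and the lowest of the 6 values were both from hIAPP_Tg mice, replicates 5 and 4. Without hIAPP_Tg replicate 5 the difference was -0.23, and without hIAPP_Tg replicate 4 it was 0.17, and neither passed. The same arrays had the lowest and the highest acinar marker mean among the hIAPP_Tg arrays, 9.52 in replicate 5 and 11.49 in replicate 4. Wild_type replicates 1 and 3 had acinar means of 10.52 and 11.98, and both read 6.3 for Cdh19. With the acinar marker mean as a covariate the difference of Cdh19 was -0.23 (limma adjusted p = 0.806). The part of acinar cells in the spread of Cdh19 was not tested.

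Gap43, a growth cone protein of regrowing axons that injured Schwann cells also make, lay at the edge of the background. It read 6.2, 5.9 and 5.9 in hIAPP_Tg islets, against 6.1, 5.8 and 5.8 in wild-type islets. The difference was 0.10 (SE 0.12, 95% interval -0.20 to 0.40, limma adjusted p = 0.862). In each genotype 1 array stood above the other two, and the groups overlapped.

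**Figure D2:**
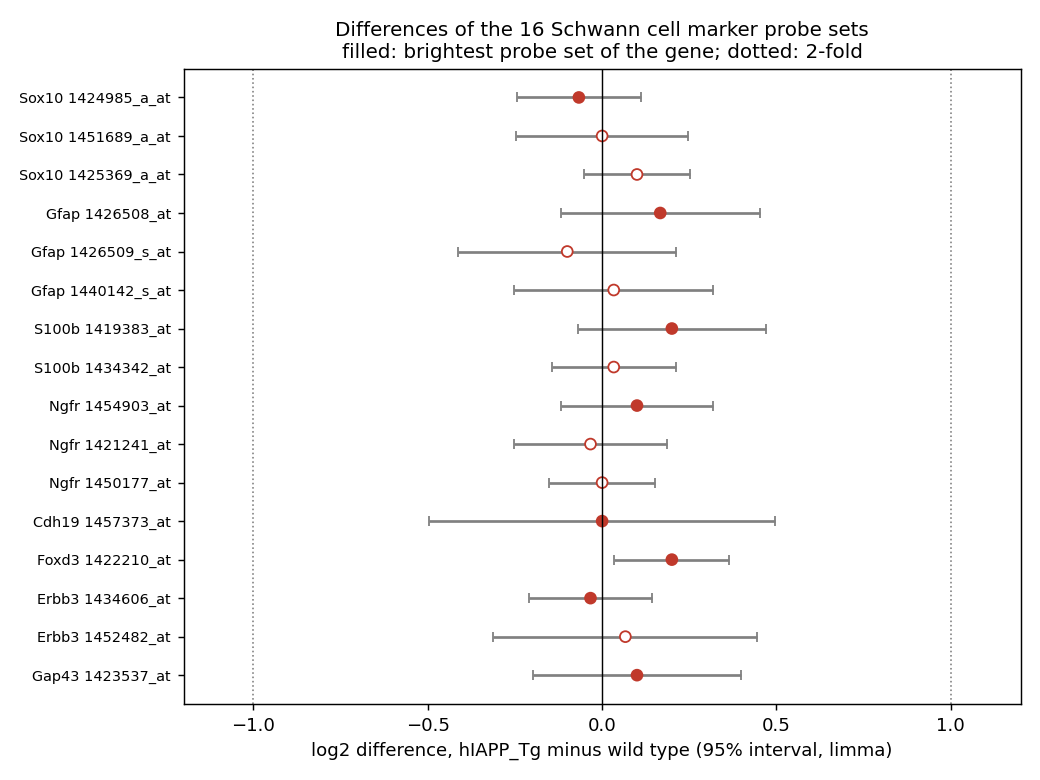
Log2 difference of each of the 16 probe sets, hIAPP_Tg minus wild type, with its 95% interval from limma (n = 3 each). Filled points are the brightest probe set of a gene, and dotted lines mark a 2-fold change (-1 and 1). All intervals lie between -0.50 and 0.50, and only that of Foxd3 leaves out 0.

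Taking the brightest probe set for each gene, 5 of the 8 genes were above 0, 1 was at 0 and 2 were below, with a median difference of 0.10 against 0 over 18193 genes. The median is the size of 1 rounding step, and it was 0.15 without hIAPP_Tg replicate 5 and 0.058 without hIAPP_Tg replicate 4. Their mean level was 6.09, 6.06 and 6.04 on the hIAPP_Tg arrays and 6.03, 5.93 and 5.99 on the wild-type arrays, so the nearest arrays of the 2 genotypes were 0.0125 apart when unrounded. The highest value was in hIAPP_Tg replicate 4 for 5 genes, ties included, and the lowest in wild_type replicate 2 for 4. Yet hIAPP_Tg replicate 4 held the lowest value of Cdh19, and hIAPP_Tg replicate 5 the lowest of Sox10. With all probe sets of a gene averaged the median was 0.028, and with the 5 genes above the receptor background on at least 3 arrays it was 0.

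**Figure D3:**
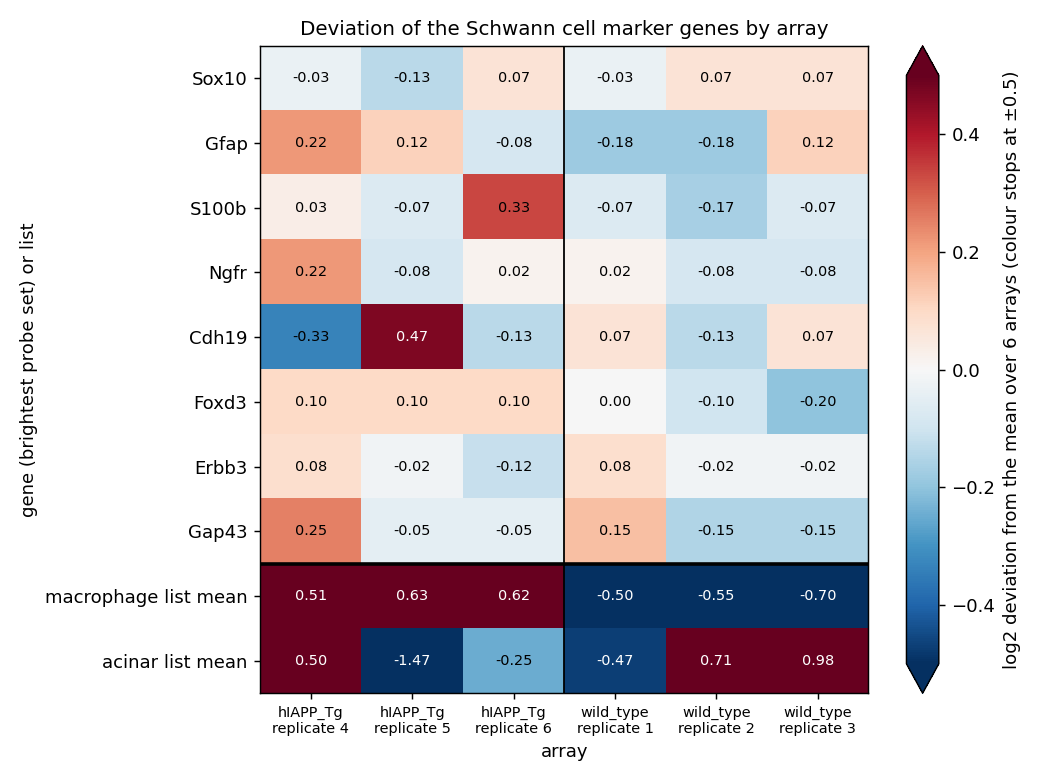
Deviation of each array from the mean over the 6 arrays, on the log2 scale, for the brightest probe set of the 8 genes and, under the thick line, for the mean of the macrophage and acinar lists. hIAPP_Tg arrays are left of the thin line. Cdh19 ranges from -0.33 to 0.47 among the hIAPP_Tg arrays, while Foxd3 stays at 0.10 there.

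The shared pattern of the 8 genes was too flat to single out other genes. Likeness was measured as the mean absolute difference between the array deviations of 2 genes over the 6 arrays, among 11724 genes above the array median. Zfp995, Wdr54 and Plk2 lay nearest to the mean over the 8 genes at 0.022, but they are 3 of 15 genes that shared this value, and 42.9% of all genes compared lay within 0.1 of it. For Cdh19, the member with the widest range, 17 genes lay within 0.1, with 2410021H03Rik at 0.056, Gpatch1 at 0.061 and Apobec1 at 0.067 the nearest, the last value being shared by 2 genes.

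Other genes of Schwann cells and peripheral glia showed no common shift either. Of 22 such genes 19 were measured, with 7 above 0, 3 at 0 and 9 below and a median difference of 0. None passed after adjustment, against 0.044% of all genes. At an unadjusted limma p under 0.05, Cnp was higher and Mbp, Fabp7 and Gpm6b were lower, beside 5.02% of all genes that were higher and 3.45% that were lower at this p. Fabp7, a fatty acid binding protein of radial glia and immature Schwann cells, read 6.2, 5.6 and 7.0 in hIAPP_Tg islets, against 7.8, 7.4 and 7.8 in wild-type islets. It differed by -1.40 (limma adjusted p = 0.503) on its single probe set, without overlap and with hIAPP_Tg replicate 5 the lowest. Mbp, the basic protein of myelin, read 8.6, 8.8 and 8.9 in hIAPP_Tg islets, against 9.3, 9.1 and 9.2 in wild-type islets. It differed by -0.43 (limma adjusted p = 0.449) without overlap, and 3 of its 8 probe sets, all downward, reached an unadjusted p under 0.05, while the 8 ran from -0.43 to 0.033. The membrane glycoprotein gene Gpm6b differed by -0.40, with 3 probe sets up to 0.067, and Cnp, an enzyme of myelin-forming glia, by 0.23, with 3 probe sets down to -0.13. On their brightest probe sets the myelin genes Pmp22, Mal and Mag differed by 0.13, -0.20 and 0. The second probe set of Mal differed by -0.27, with an unadjusted limma p under 0.05. The transcription factor Egr2, which drives myelination, differed by 0.033. Egr2, at 4.3 to 4.7, and Mag, at 5.1 to 5.5, lay within the receptor background on these probe sets, and 9 of the 19 genes had a mean above it.

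The ligands and partners of the 2 receptors among the members were looked at next. Of 14 measured genes for neuregulins, EGF family ligands and ERBB receptors, 0 passed over all probe sets, and the median was 0.050. At an unadjusted limma p under 0.05, 2 were higher and 0 lower, beside 5.02% of all genes that were higher and 3.45% that were lower. Those 2, Lrig1 and Errfi1, encode inhibitors of ERBB signalling. Lrig1, which promotes ERBB receptor degradation, read 7.8, 7.9 and 7.5 in hIAPP_Tg islets, against 7.1, 7.3 and 7.3 in wild-type islets (difference 0.50, limma adjusted p = 0.498), with no overlap and with 2 of 3 probe sets higher at an unadjusted p under 0.05 and the lowest of the 3 at -0.13. Errfi1, a feedback inhibitor of these receptors, read 8.1, 8.5 and 8.3 in hIAPP_Tg islets, against 8.0, 7.9 and 7.8 in wild-type islets (difference 0.40, limma adjusted p = 0.552), with both of its probe sets higher at an unadjusted p under 0.05. Both genes are also expressed outside glia. The ligand gene Hbegf differed by -0.40 on its brighter probe set, and its second, at -0.50, was lower at an unadjusted limma p under 0.05.

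Of 9 measured neurotrophin genes and receptors, 0 passed. At an unadjusted limma p under 0.05, 1 was higher and 1 lower, beside 5.02% of all genes that were higher and 3.45% that were lower. The median was -0.10, with 7 genes below 0. That median was -0.033 without hIAPP_Tg replicate 5, -0.15 without wild_type replicate 1, -0.067 with averaged probe sets and -0.014 with the acinar marker mean as a covariate. Maged1, an adaptor of the Ngfr protein, differed by 0.20 and the neurotrophin gene Bdnf by -0.27 on its brighter probe set, which lay within the receptor background at 4.2 to 4.4 in hIAPP_Tg and 4.5 to 4.8 in wild-type islets, and by 0 on its second probe set. Of the 12 neural crest genes measured, 0 passed at either threshold on the brightest probe set, and the median was 0. Only 3 of the 12 had a mean above the receptor background, and with either filter on dim probe sets the median of the 3 genes kept was 0.17. Among the 12 genes Ednrb, an endothelin receptor of crest cells, differed by 0.40 and Msx1, a homeobox factor, by 0.17, both with overlap. Other probe sets of Ednrb reached down to 0 and of Msx1 to -0.27. All 3 probe sets of Sox9 lay below 0, from -0.27 to -0.13, and 1 of them was lower at an unadjusted limma p under 0.05.

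Genes that Schwann cells switch on after nerve injury did not pass over all probe sets, and their median was 0.033. At an unadjusted limma p under 0.05, 2 of 12 were higher and 1, Bdnf, lower, beside 5.02% of all genes that were higher and 3.45% that were lower. Jun, the transcription factor of the repair state, read 9.8, 9.7 and 9.8 in hIAPP_Tg islets, against 9.3, 9.3 and 9.0 in wild-type islets. It differed by 0.57 (limma adjusted p = 0.296) without overlap, but its second probe set differed by 0.13 and had no unadjusted p under 0.05. The injury factor Atf3 differed by 0.33, also without overlap, beside 3.44% of all probe sets that were higher without overlap. Both are stress genes of many cell types. Gdnf, Shh and Olig1 are on the list and showed no unadjusted p under 0.05, but their brightest probe sets lay within the receptor background, at 4.4 to 5.0. Of the 12 genes only 3 had a mean above that background. The median was 0.23 over the 4 genes above the median of all values, and 0.13 over the 3 above the receptor background on at least 3 arrays.

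Of the neuron and axon genes 14 of 18 lay above 0, with a median of 0.13, but 0 passed. Only 1 was higher at an unadjusted limma p under 0.05, beside 5.02% of all genes. That gene was Vip, a neuropeptide of the parasympathetic nerves that reach the islet. It read 10.9, 10.3 and 10.2 in hIAPP_Tg islets, against 9.9, 9.2 and 9.0 in wild-type islets (difference 1.10, limma adjusted p = 0.503), without overlap. The growth cone gene Stmn2 differed by 0.53, the neurofilament genes Nefl by 0.37 and Nefm by 0.33, and the Gap43-like protein gene Basp1 by 0.33, all with overlap. Endocrine cells make several of these genes as well.

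Families of 2 members behaved unevenly. In the S100 family 12 genes were measured, 0 passed and the median was 0.017. S100a4, a calcium-binding protein of fibroblasts and leukocytes, read 7.1, 6.8 and 7.3 in hIAPP_Tg islets, against 8.3, 8.0 and 8.1 in wild-type islets (difference -1.07, limma adjusted p = 0.182), a gap wider than the spread within either genotype and opposite in sign to S100b. Among 10 intermediate filament and astrocyte genes 0 passed and the median was also 0.017. The water channel gene Aqp4 read 4.8, 5.8 and 5.0 in hIAPP_Tg islets, against 4.3 on each wild-type array (difference 0.90, limma adjusted p = 0.516), within the receptor background and with the lowest of its 3 probe sets at 0.067, and the aldolase gene Aldoc differed by 0.23.

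**Figure D4:**
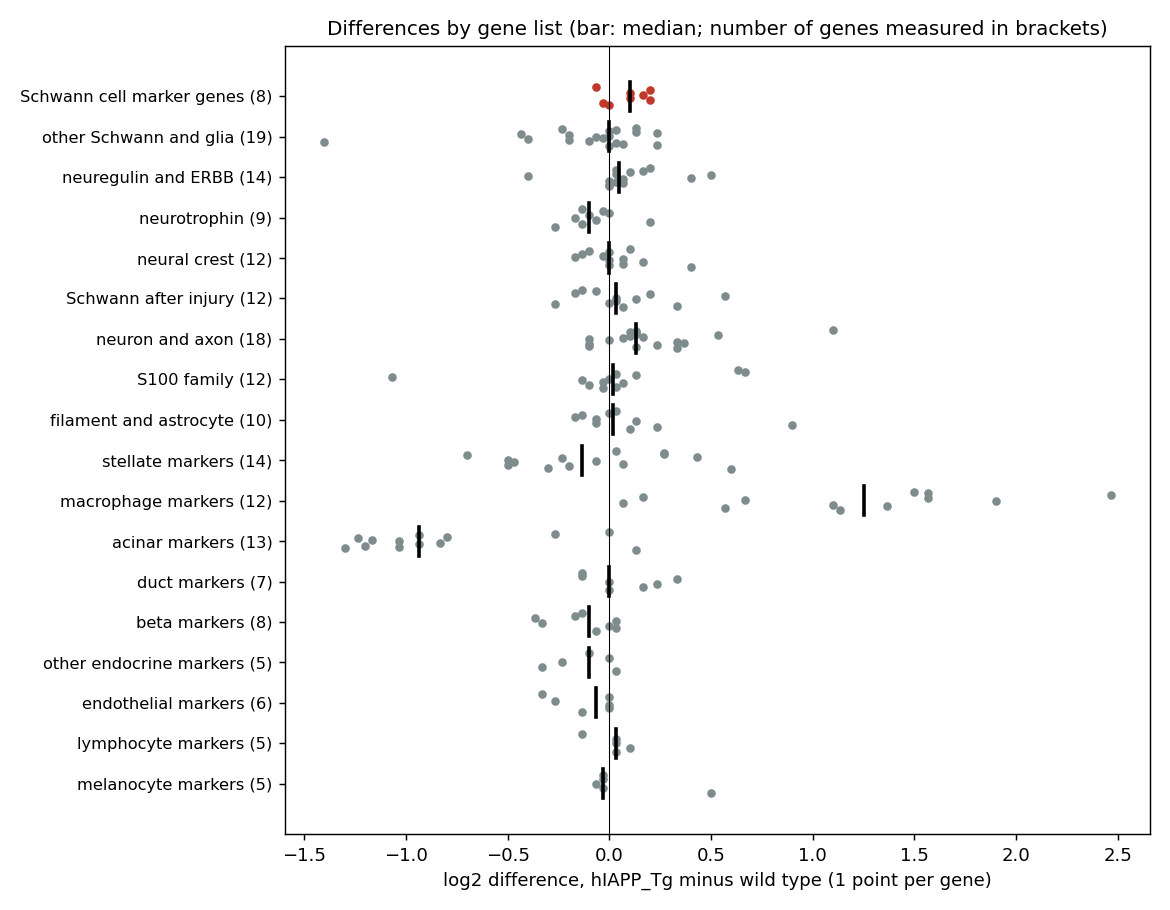
Log2 difference, hIAPP_Tg minus wild type, for every measured gene of each list, 1 point per gene (brightest probe set), with the median as a bar. The lists were chosen with earlier results of these data known. The 8 Schwann cell marker genes lie between -0.067 and 0.20, while the macrophage list has a median of 1.25 and the acinar list one of -0.93, which is -0.27 without hIAPP_Tg replicate 5.

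Macrophage markers had a median difference of 1.25 and acinar markers one of -0.93, beside 0.10 for the Schwann cell markers. All of these lists were chosen with earlier results of these data known. The mean of the 12 macrophage markers was 8.09 to 8.22 on the hIAPP_Tg and 6.88 to 7.08 on the wild-type arrays, with 12 of 12 above 0 and 2, Mpeg1 (1.57) and Tyrobp (1.5), past the limma test. Lyz2, the next by p, differed by 2.47 (limma adjusted p = 0.0555). The mean of the 13 acinar markers was 9.52 to 11.49 on the hIAPP_Tg and 10.52 to 11.98 on the wild-type arrays, and 0 passed. Single arrays set the size of the acinar median, which was -0.27 without hIAPP_Tg replicate 5, -1.52 without hIAPP_Tg replicate 4 and -0.62 without wild_type replicate 3. Among these genes the digestive enzyme genes Cel and Ctrl differed by -1.30 and -1.23, with overlap. Stellate, fibroblast and pericyte markers, which share Gfap and Ngfr with Schwann cells, had means of 8.0 to 8.15 on the hIAPP_Tg and 7.97 to 8.51 on the wild-type arrays, a median difference of -0.13 over 14 genes and 0 past the test. That median was 0 without wild_type replicate 1 and with averaged probe sets, and -0.21 without wild_type replicate 2 or 3. At an unadjusted limma p under 0.05, Pdgfrb (0.43) and Acta2 (0.60), genes of contractile pericytes and stellate cells, were higher, and Reln (-0.70) and Lum (-0.50) lower. Over all genes 5.02% were higher and 3.45% lower at that p. Probe sets disagreed for Acta2, where 1 of 3 was past that p with the lowest at -0.13, and for Reln, whose second differed by 0. Both probe sets of Pdgfrb (0.20 and 0.43) and all 4 of Rgs5 (0.23 to 0.83) lay above 0, but the list showed no common direction. On their brightest probe sets 6 of its 14 genes lay above 0 and 8 below, with Cspg4 at 0.067 and Des at -0.067. All probe sets of the collagen genes Col1a1, Col1a2 and Col3a1 lay below 0, with wild_type replicate 1 the highest array on the brightest of each. Col1a2 read 9.2, 9.0 and 9.0 in hIAPP_Tg islets, against 10.1, 8.8 and 8.9 in wild-type islets, so its direction leaned on that array. Melanocyte markers, a check on the crest lineage that also expresses Sox10, had a median of -0.033 over 5 genes with 0 past either threshold. The remaining marker lists held 0 genes past the limma test. Their medians were 0 for 7 duct markers, -0.10 for 8 beta cell and for 5 other endocrine markers, -0.067 for 6 endothelial markers and 0.033 for 5 lymphocyte markers. At an unadjusted limma p under 0.05, the duct genes Krt7 (0.33) and Epcam (0.17) were higher, beside 5.02% of all genes. Hhex (-0.33) and Irx2 (-0.23), of delta and alpha cells, and the endothelial genes Tek (-0.33) and Pecam1 (-0.27) were lower at that p, beside 3.45% of all genes. The beta cell genes farthest from 0 were Slc2a2 (-0.37) and Nkx6-1 (-0.33), and the lymphocyte genes farthest from 0 were Ms4a1 (-0.13) and Cd3g (0.10). With the acinar marker mean as a covariate 0 of the 16 Schwann cell marker probe sets passed, and the part of macrophages and stellate cells in their values was not tested.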

How the data were processed

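The authors deposited log2 values, for which the submitters' processing notes name RMA and affy, without versions. They lie between 2.9 and 15.1 in steps of 0.1, and all 6 array medians are 5.7. Precision is limited by the number of arrays, which have no read depth. Leaving out 64 control probe sets left 45037, of which 34945 had 1 gene symbol in the platform annotation. All 8 member symbols matched a RefSeq gene table (GRCm38.p6) by Entrez number, and 0 probe sets with several symbols held one.

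Each probe set was tested with limma 3.58.1 in R 4.3.3 (eBayes after lmFit; two-sided, genotype as the only term), adjusted by Benjamini-Hochberg over all 45037, with a threshold of 0.05. For 286 probe sets the 3 values were identical within both genotypes. Replicates are separately numbered mice per the labels. On simulated data with 200 changed among 45037 probe sets, 80% of log2 changes of 1 and 95% of changes of 2 were recovered, with 3 false among 178 calls. Recovery at the low levels of most member probe sets was not tested. The macrophage list was chosen with earlier results of these data known and is no independent check of the test. On the measured arrays its genes Mpeg1 (1.57) and Tyrobp (1.5) passed. Lyz2 (2.47, limma adjusted p = 0.0555), Cd68 (1.9, limma adjusted p = 0.150) and Fcgr3 (1.57, limma adjusted p = 0.291) did not, although their groups did not overlap.

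The brightest probe set stood for a gene on the lists. Members and 17 other lists were chosen with earlier results of these data known, and some genes on them are not analysed here. All member probe sets were named; from each other list, up to 3 genes per direction with the smallest unadjusted p under 0.05, or, with none, up to 2 with the largest difference. Further genes named beside them, S100a8 and S100a9 included, were picked once their values were known. The alternatives were median centring, quantile normalization, array weights, 2 other priors, 2 intensity filters, averaged probe sets, an acinar covariate and leaving out each array. Figures were drawn with matplotlib 3.10.9.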

Additional observations from a re-analysis of the deposited data

How the results depend on the processing

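None of the 16 probe sets of the Schwann cell marker genes passed an adjusted p of 0.05 in limma under any of the 15 alternatives in which it was tested; the lowest adjusted p was 0.337, for Foxd3 with array weights. The filters on dim probe sets kept 7 and 6 of the 16. The count at an unadjusted p under 0.05, 1 higher and 0 lower, fell to 0 with the acinar covariate, and was 0 to 1 when single arrays were left out. Signs of differences near 0 changed in places, which has no weight, since none was called. Over all probe sets, 12 passed higher and 1 lower. The higher count was 25 with quantile normalization, 41 with a robust prior, 22 with array weights and 3 with the acinar covariate. The lower count was 5, 10, 4 and 0 in the same settings, 3 with either filter and 2 with averaged probe sets. With 1 array left out, 1 to 4 passed higher and 0 to 2 lower. The cause of these shifts was not tested. Of 270 recomputed list medians, 41 moved by more than the spread between arrays, and the median of the 8 genes ran from 0 to 0.15. No paired analysis was possible because the genotypes share no replicate numbers. Most member probe sets lay within the receptor background, which limits what a difference of 0 can show.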

Other observations

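A pair of S100 genes that the comparison left unnamed had 1 array apart from the rest. S100a8 and S100a9 encode the calgranulins that neutrophils hold in large amounts. S100a8 read 4.5, 6.3 and 4.6 in hIAPP_Tg islets, against 4.5, 4.3 and 4.6 in wild-type islets, and S100a9 read 4.6, 6.1 and 4.4 in hIAPP_Tg islets, against 4.3, 4.4 and 4.5 in wild-type islets. For both genes hIAPP_Tg replicate 5 was the high array, the one that also held the highest Cdh19 and the lowest acinar marker mean. Neither gene passed the limma test (adjusted p = 0.766 and 0.734), and the other 5 arrays lay within the receptor background.

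Dct, a melanocyte enzyme gene, read 7.8, 8.7 and 8.1 in hIAPP_Tg islets, against 7.6, 7.9 and 7.6 in wild-type islets, again with hIAPP_Tg replicate 5 the highest (difference 0.50, limma adjusted p = 0.632). The other 4 melanocyte markers differed by -0.067 to -0.033 on their brightest probe sets, while further probe sets of Tyr reached up to 0.17 and of Tyrp1 up to 0.033.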
